A study of Mus musculus with 16 samples.

Results

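The genes described here are 35 extracellular matrix genes of the mouse, read in whole retinas. They are a listed set of collagens, basement membrane proteins, proteoglycans, glycoproteins and matrix remodelling factors, and were found by gene symbol in a table of 54532 genes for uninjected retinas and by the same Ensembl identifier in a table of 48440 genes for injected retinas. All 35 were present in both tables. Retinal RNA was sequenced in 16 libraries to compare ages, an Elovl2 mutation and an injected fatty acid. Elovl2 encodes an enzyme that lengthens polyunsaturated fatty acids. All mice were C57BL6/J. Of 10 uninjected retinas, 3 were wildtype and 3 carried the Elovl2 mutation, all aged 12 months, and 4 were wildtype aged 18 months. The design text calls the mutation C234W, whereas the genotype labels call it C34W. The 6 injected retinas were wildtype, aged 18 months and collected 5 days after intravitreal injection. Of these, 3 received 0.36 nmol of the polyunsaturated fatty acid 24:5, which has 24 carbons and 5 double bonds, and 3 received vehicle in the opposite eye. The labels name no animal for any retina, so p-values here measure the spread between these libraries, which may be partly technical, and the opposite eyes could not be paired.

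The extracellular matrix is the network of secreted proteins outside cells. In the retina, sheets of basement membrane built from laminin, type IV collagen and nidogen line the vitreal surface and surround the blood vessels, while fibrillar collagens are characteristic of the sclera, cornea and other connective tissue around the eye. Fibroblasts, pericytes, glia and the ciliary epithelium all secrete matrix proteins, and a bulk library mixes their transcripts, so that fewer cells of a type and less RNA per cell cannot be told apart.

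Libraries held 12810558 to 30519417 reads in the uninjected table and 22066668 to 25609242 counts in the injected table. Markers of fibroblasts were low. Of 8 such markers, 6 stayed below 1 FPKM (fragments scaled by gene length and by library size) in every uninjected library, and Twist2 was at 0 counts in every injected library. Cygb made up most of that list's summed level, at 51.3 to 68.4 FPKM. The 35 genes are therefore called matrix genes here, with no cell type in the name. In some of the matrix genes, such as Fbln1 and Ogn, 4 libraries stood apart. They were wildtype replicate 1 and mutant replicate 2 at 12 months, and vehicle replicates 1 and 2. Markers of the ciliary body and iris, 5 genes in all, summed to 22.2 FPKM in that wildtype library and 13.4 FPKM in that mutant library, against 4.52 to 8.45 FPKM in the other uninjected retinas. In the injected retinas their sum was 66.1, 39.5 and 7.28 CPM (counts scaled to library size, with TMM factors) in vehicle replicates 1 to 3 and 28, 14 and 14.7 CPM with 24:5. These sums include Optc, which was chosen after its values were seen and is given alone below. Optc made up 9.23 FPKM of the sum in wildtype replicate 1 and 5.52 FPKM of that in mutant replicate 2. The sums are therefore not separate from it and are a description only. Lens markers, 13 genes, summed to 1831, 1958 and 140.3 CPM with vehicle and to 738, 139.7 and 62.8 CPM with 24:5.

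The secreted glycoproteins led the set. Per length of gene, Sparc, which binds collagen and calcium, was the highest of the 35 in uninjected retinas. It lay at 45.5, 35.5 and 54.7 FPKM in wildtype retinas at 12 months, at 45.9, 52.2 and 56.7 FPKM in mutants, and at 51.7, 39.5, 42.3 and 44.8 FPKM in wildtype retinas at 18 months. These groups overlapped throughout. Efemp1, a fibulin known for a mutation that causes an inherited macular dystrophy, was next. It measured 42.2, 18.4 and 19.4 FPKM in wildtype retinas at 12 months, 18.3, 24.6 and 23.5 FPKM in mutants and 23.7, 19.3, 18.7 and 21.5 FPKM at 18 months. Its other 9 uninjected libraries lay within 18.3 to 24.6 FPKM, and wildtype replicate 1 was 2.18 times their median. Mgp, an inhibitor of calcification, lay at 6.21, 4.66 and 5.62 FPKM in wildtype retinas at 12 months, at 5.78, 4.81 and 6.78 FPKM in mutants and at 6.64, 4.21, 5.88 and 5.22 FPKM at 18 months, with overlapping groups. Thbs1, a regulator of vessel growth and of TGF-beta activation, ranged from 0.860 to 2.36 FPKM. Postn and Tgfbi, which link collagens to cells, stayed at or below 0.335 FPKM.

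**Figure D1:**
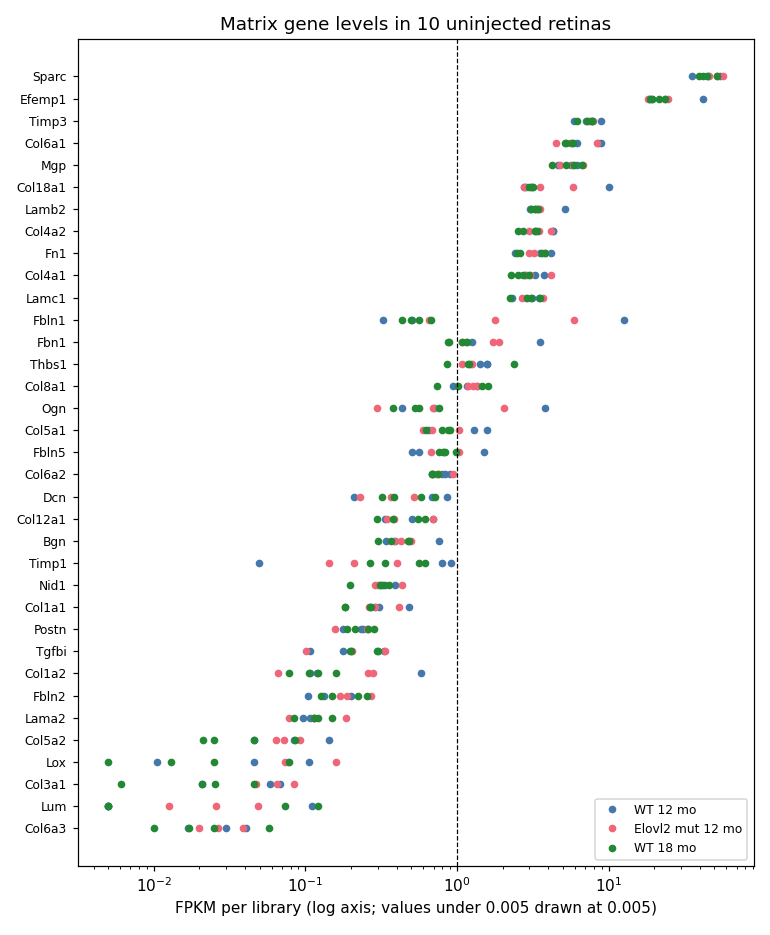
Level of each of the 35 matrix genes in FPKM (horizontal log axis) in the 10 uninjected retinas, 1 point per library, coloured by group, with genes ordered by their mean and a dashed line at 1 FPKM. Sparc and Efemp1 are highest, Col3a1, Lum and Col6a3 are lowest, and the points of Fbln1 and Ogn spread most among genes with a mean above the line.

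Among the basement membrane genes, Col4a1 and Col4a2 encode the chains of the common type IV collagen network, Col18a1 the collagen that releases endostatin, Lama2, Lamb2 and Lamc1 laminin chains, and Nid1 the nidogen that joins laminin to collagen. Col18a1 measured 10.1, 2.76 and 2.83 FPKM in wildtype retinas at 12 months, 3.51, 5.81 and 2.76 FPKM in mutants and 3.10, 3.18, 3.12 and 2.99 FPKM at 18 months. It was high in wildtype replicate 1 and mutant replicate 2, while the other 8 libraries lay between 2.76 and 3.51 FPKM. Lamb2 lay at 5.17, 3.01 and 3.08 FPKM in wildtype retinas at 12 months, at 3.41, 3.37 and 3.52 FPKM in mutants and at 3.42, 3.25, 3.25 and 3.08 FPKM at 18 months, and again wildtype replicate 1 was the highest. Lamc1 had 2.25 to 3.67 FPKM, Nid1 0.196 to 0.435 FPKM and Lama2 0.0776 to 0.185 FPKM.

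The 2 type IV collagen genes lie head to head on chromosome 8 (mm10). Col4a1 (ENSMUSG00000031502) covers 11198423 to 11312826 on the minus strand and Col4a2 (ENSMUSG00000031503) covers 11312805 to 11449287 on the plus strand, so their models overlap at the starts, where reads of the pair can be told apart only by strand. Within each table their levels kept a nearly fixed ratio, which differed between the tables. Col4a1 over Col4a2 had a median of 0.887 in FPKM, with a range of 0.754 to 1.003 over 10 uninjected libraries. Per kilobase the ratio was 1.41 in the injected table, within 1.31 to 1.70 over 6 libraries. Scaling to library size cancels in a ratio within a library, and the cause of the difference between the tables was not tested. The promoter windows of the pair are shown because they share sequence. They are RefSeq windows of 300 bases, from 250 before to 50 after the annotated start, on build GRCm38.p6 (mm10). Each is printed 5′ to 3′ on its gene's strand. Col4a1 is at chr8:11312777-11313076 on the minus strand and Col4a2 at chr8:11312555-11312854 on the plus strand, and they share the 78 bases from 11312777 to 11312854. Capitals mark the GC box letters GGGCGG and the CCAAT box letters CCAAT, on either strand.
Col4a1: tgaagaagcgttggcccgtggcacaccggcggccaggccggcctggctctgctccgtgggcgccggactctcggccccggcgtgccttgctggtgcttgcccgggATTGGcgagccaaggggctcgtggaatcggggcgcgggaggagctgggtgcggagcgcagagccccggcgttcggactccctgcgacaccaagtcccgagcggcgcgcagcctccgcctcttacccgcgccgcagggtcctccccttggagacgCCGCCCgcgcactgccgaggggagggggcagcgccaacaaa
Col4a2: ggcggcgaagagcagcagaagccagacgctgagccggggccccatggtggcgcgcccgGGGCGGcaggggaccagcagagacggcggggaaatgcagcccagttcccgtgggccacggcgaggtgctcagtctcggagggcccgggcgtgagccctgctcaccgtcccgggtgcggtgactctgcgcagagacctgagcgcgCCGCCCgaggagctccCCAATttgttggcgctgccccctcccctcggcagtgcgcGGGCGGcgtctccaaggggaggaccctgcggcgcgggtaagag

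Both windows held the CCAAT and GC box letters. Of the 35 genes, 25 had a window in the RefSeq table, with 30 windows in all. GC box letters occurred in 19 of these 30 windows (63.3%) and in 35.7% of all 32851 windows of this length. CCAAT letters occurred in 8 of the 30, against 37.4% of all windows, and TATAAA in 3, against 13.6%. These counts describe letters only and do not locate a factor's binding.

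Type VI, VIII and XII collagens form microfibrils, lattices and fibril-associated chains. By its mean over the uninjected libraries Col6a1 was the highest collagen of the set, although Col18a1 exceeded it in wildtype replicate 1 and mutant replicate 2, and Col4a1 and Col18a1 had higher means per kilobase in injected retinas. It measured 8.55, 8.86 and 6.17 FPKM in wildtype retinas at 12 months, 8.45, 4.49 and 5.60 FPKM in mutants and 5.80, 5.74, 5.12 and 5.24 FPKM in wildtype retinas at 18 months. The chains that assemble with it were far lower. Col6a2 had 0.680 to 0.938 FPKM and Col6a3 0.00996 to 0.0573 FPKM, which is 2 to 15 reads per library. The median ratio of Col6a1 to Col6a2 was 7.67, within 6.25 to 11.1 over the 10 libraries, and per kilobase it was 8.43 in injected retinas, within 7.86 to 9.68. Col8a1, a short-chain collagen of vessel and corneal endothelium, lay at 1.35, 0.940 and 1.16 FPKM in wildtype retinas at 12 months, at 1.28, 1.35 and 1.18 FPKM in mutants, and at 1.47, 0.733, 1.01 and 1.61 FPKM at 18 months. Col12a1 ranged from 0.294 to 0.692 FPKM.

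Genes of interstitial connective tissue were low. The fibrillar collagens Col1a1, Col1a2, Col3a1, Col5a1 and Col5a2 summed to 0.996 to 2.60 FPKM per library. Col5a1, whose chain sets fibril diameter, took most of that sum. It lay at 1.58, 1.29 and 0.656 FPKM in wildtype retinas at 12 months, at 1.03, 0.683 and 0.597 FPKM in mutants and at 0.792, 0.870, 0.896 and 0.625 FPKM at 18 months. Col1a1, the main chain of bone and skin collagen, measured 0.307, 0.480 and 0.289 FPKM, then 0.415, 0.263 and 0.290 FPKM, and 0.269, 0.182, 0.266 and 0.182 FPKM in the same groups. Col3a1 had 1 to 17 reads per library. Of the small leucine-rich proteoglycans, which coat collagen fibrils, Lum had 0 to 8 reads and was listed at 0 in 4 of 10 libraries. Dcn lay at 0.853, 0.209 and 0.681 FPKM, then at 0.517, 0.364 and 0.228 FPKM, and at 0.582, 0.383, 0.320 and 0.715 FPKM across the same groups, all of which overlapped.

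The remodelling genes encode tissue inhibitors of metalloproteinases and the collagen crosslinking enzyme Lox. Timp3, an inhibitor held in Bruch's membrane and known for Sorsby fundus dystrophy, lay at 8.91, 5.93 and 7.11 FPKM in wildtype retinas at 12 months, at 7.61, 7.90 and 7.45 FPKM in mutants and at 7.81, 6.22, 7.23 and 7.76 FPKM at 18 months. Timp1, an inhibitor induced in injury, was low and irregular, at 0.909, 0.801 and 0.0498 FPKM, then 0.400, 0.208 and 0.143 FPKM, and 0.612, 0.336, 0.562 and 0.268 FPKM. It rested on 1 to 24 reads per library. Timp1 and Timp3 lie inside the synapsin genes Syn1 and Syn3, on the opposite strand. Lox stayed at or below 0.158 FPKM.

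Fn1, the fibronectin that links cells to collagen, lay at 4.18, 3.52 and 2.40 FPKM in wildtype retinas at 12 months, at 3.78, 2.98 and 3.23 FPKM in mutants and at 2.61, 3.82, 3.61 and 2.48 FPKM at 18 months, and its groups overlapped. Other members shared the libraries in which they were high. Fbln1 (ENSMUSG00000006369, chromosome 15, 85205949 to 85286535), a fibulin of basement membranes and elastic fibres, measured 12.6, 0.325 and 0.506 FPKM in wildtype retinas at 12 months, 1.79, 5.95 and 0.653 FPKM in mutants, and 0.669, 0.564, 0.50 and 0.437 FPKM at 18 months. Wildtype replicate 1 was 22.3 times the median of the other 9 libraries. Ogn (ENSMUSG00000021390, chromosome 13, 49608046 to 49624501), a leucine-rich proteoglycan, measured 3.80, 0.435 and 0.706 FPKM, then 0.692, 2.04 and 0.296 FPKM, and 0.530, 0.378, 0.559 and 0.766 FPKM. It was highest in the same wildtype library, with mutant replicate 2 next. Fbn1 (ENSMUSG00000027204, chromosome 2, 125300594 to 125507993), the fibrillin of microfibrils and of the zonule that holds the lens, measured 3.53, 1.25 and 1.15 FPKM, then 1.74, 1.91 and 1.07 FPKM, and 0.868, 0.886, 1.16 and 1.08 FPKM.

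The injected table held a like pattern in vehicle replicates 1 and 2. Fbln1 stood at 67.0, 29.4 and 1.33 CPM with vehicle and at 2.07, 1.23 and 1.96 CPM with 24:5. Ogn stood at 9.99, 8.62 and 1.06 CPM with vehicle and at 2.03, 0.677 and 0.614 CPM with 24:5, and Fbn1 at 82.1, 49.4 and 18.4 CPM against 19.1, 17.2 and 16.8 CPM. In each of these genes vehicle replicate 3 lay near the 24:5 retinas. Optc, a vitreous proteoglycan secreted by the ciliary epithelium that is not in the set and was chosen after its values were seen, was at 9.23 FPKM in wildtype replicate 1, at 5.52 FPKM in mutant replicate 2 and at 0.434 to 1.66 FPKM in the other 8 uninjected retinas. It was at 22.9, 15.9 and 0.532 CPM with vehicle and at 0.875, 0.635 and 1.64 CPM with 24:5. Its part in the members' levels was not tested. Fits with its level as a covariate cannot decide it, because Optc was chosen after it was seen to be high in these libraries. The medians of those fits are given with each comparison as a description.

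**Figure D2:**
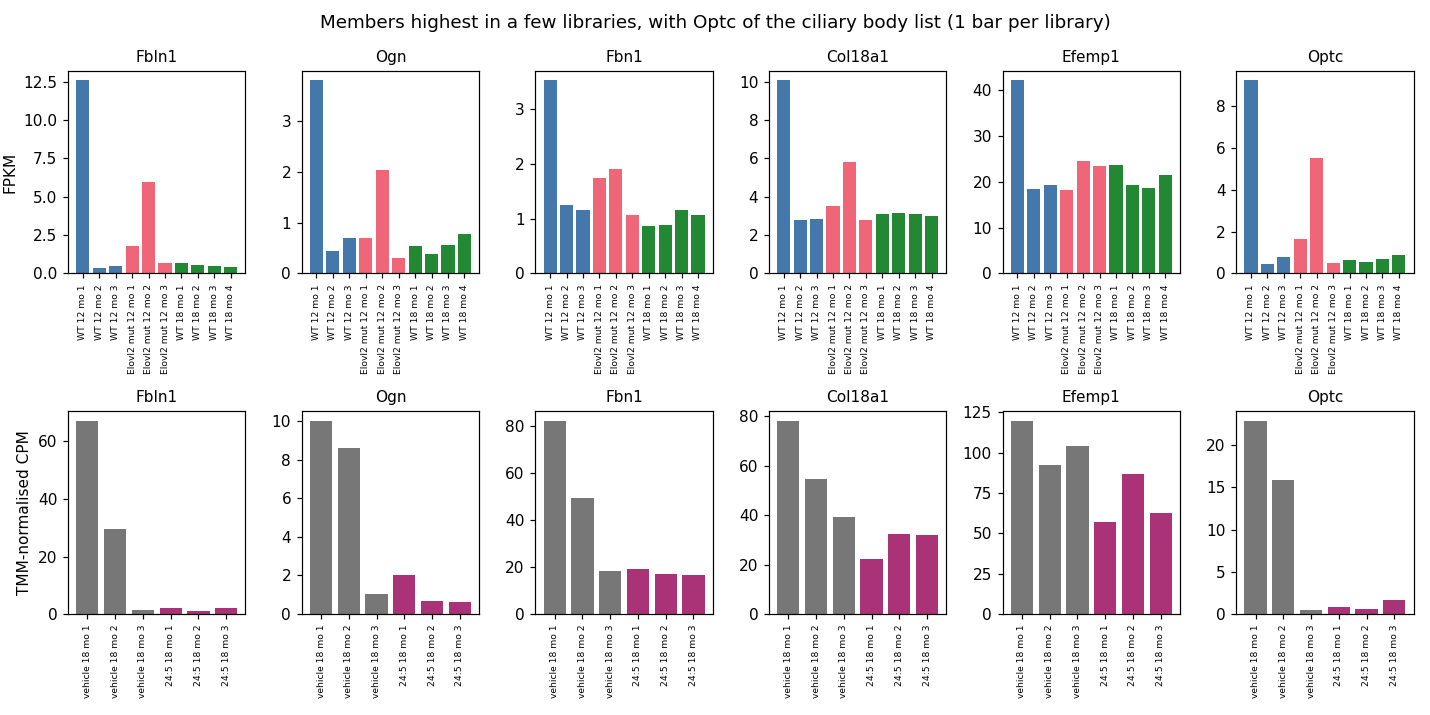
Levels of Fbln1, Ogn, Fbn1, Col18a1, Efemp1 and the non-member Optc, 1 bar per library, in FPKM for 10 uninjected retinas (top) and TMM-normalised CPM for 6 injected retinas (bottom), coloured by group. The genes were picked as highest in a few libraries, so the bars of wildtype replicate 1 at 12 months and of vehicle replicate 1 are the tallest for all 6 by choice.

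Over the set, wildtype replicate 1 at 12 months gave the highest value for 8 of 16 tested members (50%), against 7.75% of all 13786 genes tested. These 8 include Fbln1 and Ogn, which passed the filter on low values through that library and mutant replicate 2, so the count is a description only. With no filter that library was highest for 14 of 35 members, and the matching share of all genes is not given. Vehicle replicate 1 gave the highest value for 19 of 34 tested members (55.9%), against 20.5% of 17466 genes. The summed level of the 35 genes was 174 FPKM in that wildtype library and 104.5 to 133 FPKM in the other uninjected retinas. Promoter windows of Fbln1 (chr15:85205758-85206057, plus strand) and Ogn (chr13:49607765-49608064, plus strand) are shown because these 2 members shared their high libraries most clearly. The window of Fbln1 is the later of its 2 RefSeq windows. Capitals mark E box letters CACGTG and GC box letters in Fbln1, and TATA box letters TATAAA on both strands, which overlap, in Ogn.
Fbln1: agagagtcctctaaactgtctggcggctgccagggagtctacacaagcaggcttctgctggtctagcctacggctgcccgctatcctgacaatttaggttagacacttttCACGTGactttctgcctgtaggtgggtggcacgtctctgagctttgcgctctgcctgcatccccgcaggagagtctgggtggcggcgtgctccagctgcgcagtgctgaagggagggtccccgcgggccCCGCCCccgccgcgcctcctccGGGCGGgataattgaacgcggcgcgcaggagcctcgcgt
Ogn: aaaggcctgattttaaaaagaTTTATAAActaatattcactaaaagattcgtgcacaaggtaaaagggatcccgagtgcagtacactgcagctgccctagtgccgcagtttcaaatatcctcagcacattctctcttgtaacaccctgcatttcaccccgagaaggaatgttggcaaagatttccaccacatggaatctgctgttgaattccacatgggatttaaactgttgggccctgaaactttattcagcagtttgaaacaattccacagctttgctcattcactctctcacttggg

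Beside their like levels, the windows shared none of the 5 motifs searched. Besides the letters of the 4 boxes given above, those of the AP-1 site, TGANTCA, were searched, all on both strands. CACGTG occurred in 7.15% of all windows and TGANTCA in 7.81%.

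**Figure D3:**
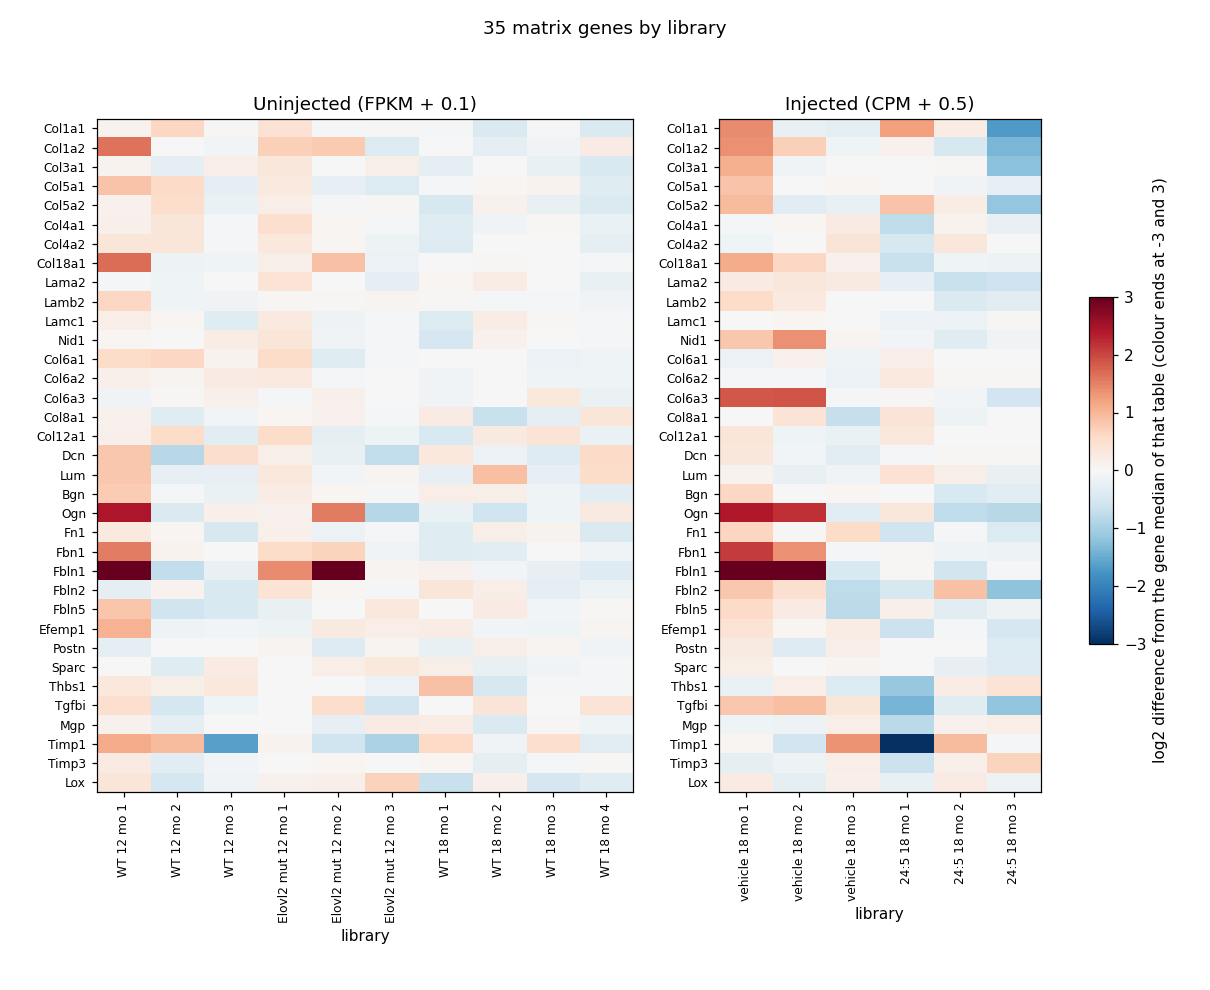
Each of the 35 matrix genes (rows) in each library (columns), as the log2 difference from that gene's median within its table, from FPKM + 0.1 for uninjected and CPM + 0.5 for injected retinas, with red above and blue below the median. The columns of wildtype replicate 1 at 12 months and vehicle replicate 1 hold the most red, and Timp1 is bluest in 24:5 replicate 1.

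The comparison of wildtype retinas at 18 and 12 months asked how matrix transcripts differ with age. In this test, which covered the 16 members with a mean of at least 1 FPKM, 0 members passed an adjusted p of 0.05 (limma, Benjamini-Hochberg over 13786 genes), and 0.0% of all genes did. Collagen transcripts gave the smallest p-values. Col6a1 averaged 5.48 ± 0.344 FPKM (SD, n = 4) in the older retinas and 7.86 ± 1.47 FPKM (SD, n = 3) in the younger ones, a difference of -0.44 (SE 0.173) on the log2(FPKM + 1) scale, which understates changes of low genes. Its 4 older libraries lay below all 3 younger ones. It was the 1 tested member whose groups did not overlap downward, a pattern seen in 2.22% of all genes tested. Of the members too low to be tested, Col1a1 and Col6a2 had it too, and the matching share of low genes is not given. Col4a2 lay at 2.51, 3.38, 3.29 and 2.73 FPKM at 18 months and at 4.31, 4.32 and 3.26 FPKM at 12 months, with a log2 difference of -0.32 (SE 0.125) and overlapping groups. Fbn1 differed by -0.49 (SE 0.241), and by -0.14 without wildtype replicate 1 at 12 months.

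Unadjusted p was under 0.05 for 2 members, Col4a2 and Col6a1, both lower at 18 months, where 1.96% of all genes had a lower value at that threshold. In the upward direction 0 of the 16 tested members had groups without overlap, against 1.95% of all genes tested. None of them passed that unadjusted level, against 1.69%. On reads recovered from the FPKM values, edgeR called 0 members and 0.00571% of all genes, and DESeq2 called 0 members and 0.0312% of all genes. Before adjustment, 6 members and 3.36% of all genes had a p under 0.05 by edgeR, and 8 members and 2.04% of all genes by DESeq2. These tools also fitted members too low for the limma test, here and in the other uninjected comparisons. Of the counts just given, 1 by edgeR and 3 by DESeq2 were fibrillar collagens, which limma did not test. With library quality weights, limma called 8 members, all lower at 18 months, and 9.04% of all genes. These 8 include Fbln1 and Ogn, and how far the weighted calls rest on 1 library was not tested. In direction, 14 of 16 members were lower at 18 months, against 50.6% of all genes, and the median log2 difference was -0.18, against 0.00 for all genes. Of these, Fbln1 and Ogn passed the filter on low values through wildtype replicate 1 and mutant replicate 2, and their 18-month values all lay under 1 FPKM, so this count is given as a description only. With no filter 27 of 35 members were lower, against 54.7% of all genes, with a median of -0.06. The lean of the tested members rested on wildtype replicate 1. Without it the median was 0.07 and 5 of 15 members were lower, against 52.9% of all genes, and with the Optc level as a covariate the median was -0.02. Col6a1 and Col4a2 stayed below 0 in all 17 alternatives, at -0.58 to -0.36 and -0.42 to -0.26.

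The comparison of Elovl2 mutant and wildtype retinas at 12 months used the same 3 wildtype libraries as the age comparison. Members were spread evenly around 0, with 8 of 16 lower in mutants, against 52.3% of all genes, and a median of -0.03. By limma 0 members passed the threshold, as did 0.0% of all genes, and 0 had an unadjusted p under 0.05, against 1.11% of all genes lower and 1.08% higher. On recovered reads, edgeR and DESeq2 each called 0 members and 0.0% of all genes. Before adjustment edgeR had 0 members and 2.06% of all genes below that level, and DESeq2 1 member and 1.29%. With library quality weights, limma called 5 members and 18.8% of all genes. Thbs1 measured 1.24, 1.25 and 1.09 FPKM in mutants and 1.58, 1.41 and 1.57 FPKM in wildtypes, so its groups did not overlap, as in 2.92% of all genes in that direction and 3.05% in the other. Its log2 difference was -0.20 (SE 0.185). Col6a1, at -0.33 (SE 0.185), and Sparc, at 0.20 (SE 0.156), had overlapping groups. Without wildtype replicate 1 the members' median was 0.14, with 3 of 15 lower against 54.9% of all genes, and without wildtype replicate 3 it was -0.18. With the Optc level as a covariate it stayed at -0.03.

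Wildtype retinas at 18 months were also set against mutants at 12 months, which differ in both age and genotype and share libraries with the comparisons above. By limma 0 members passed, as did 0.0% of all genes, with 0 at an unadjusted p under 0.05, against 1.1% of all genes lower and 1.04% higher. Groups failed to overlap for 0 of the 16 tested members, against 2.37% of all genes lower and 2.1% higher. Among members too low to be tested, groups failed to overlap for Col3a1, at 1 to 17 reads per library. The matching share of low genes is not given. On recovered reads, edgeR called 0 members and 0.0% of all genes, and DESeq2 0 members and 0.0332%. Before adjustment edgeR had 2 members and 1.98% of all genes below that level, and DESeq2 3 members and 1.27%. Here 15 of 16 members were lower in older wildtypes, against 46.8% of all genes, with a median of -0.10. Fbln1 and Ogn are among these 15, with the same caution on the filter, and with no filter 27 of 35 members were lower, against 47.6% of all genes, with a median of -0.06. With the Optc level as a covariate 9 of 16 were lower and the median was -0.02. Of the members, the type IV collagens Col4a1 and Col4a2 had the smallest p-values. Col4a1 lay at 2.27, 2.73, 2.98 and 2.52 FPKM in older wildtypes and at 4.18, 3.05 and 2.86 FPKM in mutants, a log2 difference of -0.26 (SE 0.123), which was -0.13 without mutant replicate 1. Col4a2 differed by -0.19 (SE 0.125), and by -0.09 without that library. Fbn1 differed by -0.35 (SE 0.241), and by -0.08 with the Optc covariate. Another type IV collagen chain, Col4a3, is not a member and went the other way, at 6.59, 8.11, 8.88 and 7.66 FPKM in older wildtypes and 5.76, 4.74 and 3.41 FPKM in mutants, a log2 difference of 0.66 (SE 0.174) with no overlap, which did not pass the adjusted threshold by limma.

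**Figure D4:**
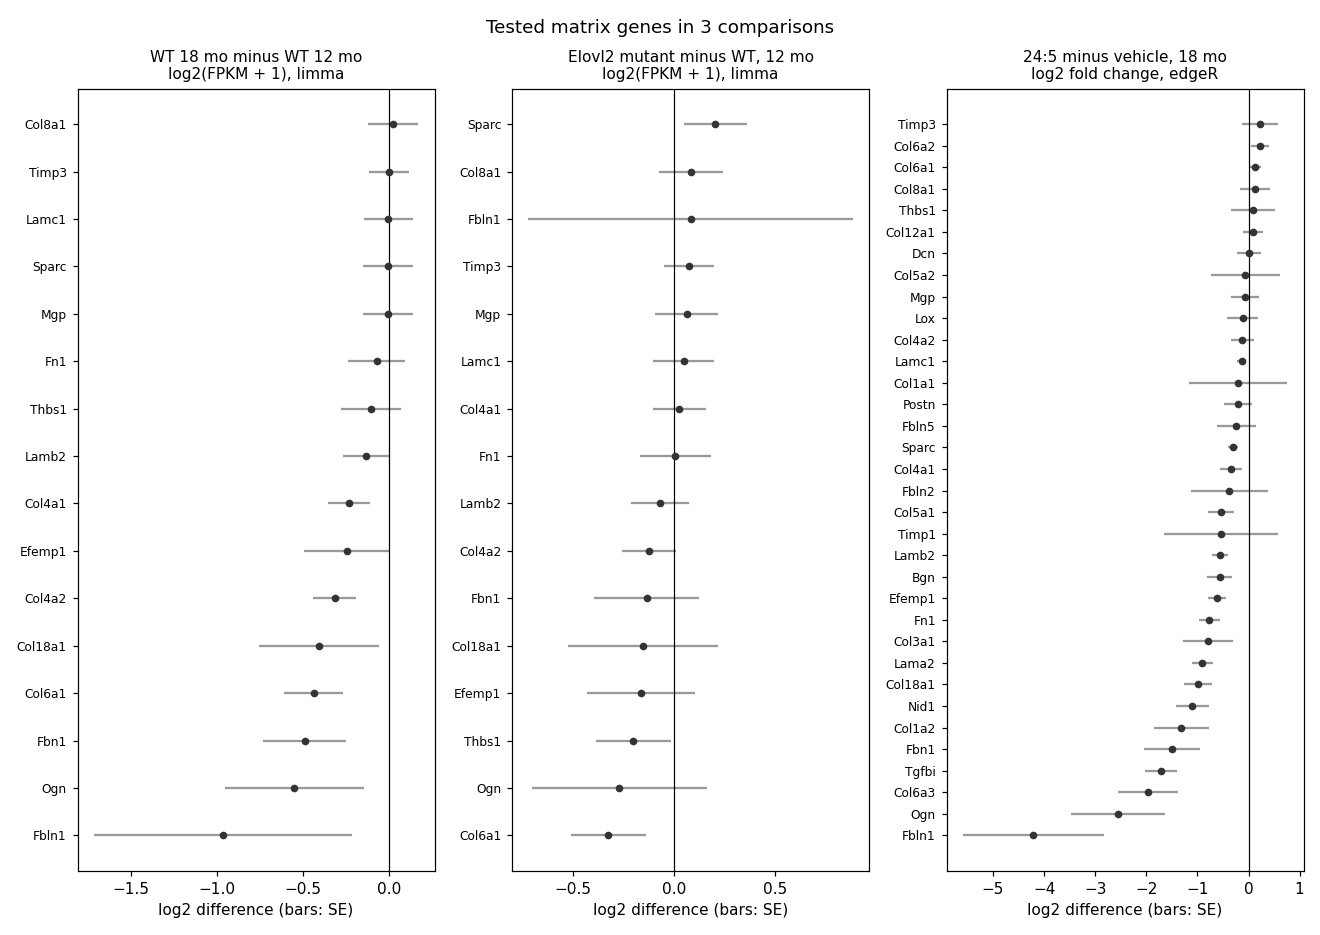
Log2 differences (horizontal axis, bars show the standard error) for tested matrix genes, sorted within each panel, for age (16 genes), genotype (16 genes) and 24:5 against vehicle (34 genes). In the age panel 14 of 16 points and in the 24:5 panel 27 of 34 points lie left of 0, while the genotype panel has 8 on each side.

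The comparison of 24:5 with vehicle in retinas at 18 months asked how the supplement altered transcripts. Matrix genes were mostly lower in the 24:5 retinas. Of 34 members tested, all but Lum, 27 were lower, against 49.2% of all genes, and the median log2 fold change was -0.36, against 0.00 for all genes. By edgeR's quasi-likelihood test with Benjamini-Hochberg adjustment over 17466 genes, 0 members passed the threshold, and 0.0115% of all genes did. At an unadjusted p under 0.05, 14 members were lower and 0 higher, against 5.16% and 1.44% of all genes. Groups did not overlap for 10 members that were lower and 1 that was higher, against 6.77% and 4.82% of all genes. DESeq2 on the same counts called 8 members, all lower, where it called 1.24% of all genes. With DESeq2's adjusted p, they were Tgfbi (1.66e-06), Col18a1 (0.0068), Fn1 (0.012), Col6a3 (0.013), Lama2 (0.033), Efemp1 (0.037), Nid1 (0.041) and Fbln1 (0.047). The adjusted p-values of edgeR for these genes, given below, did not pass. Before adjustment DESeq2 had 14 members and 4.1% of all genes at a p under 0.05.

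All 7 basement membrane genes were lower with 24:5, against 49.2% of all genes, with a median of -0.56. Groups did not overlap for 4 of them, against 6.77% of all genes in that direction. Lama2 (ENSMUSG00000019899), the laminin chain absent in a form of congenital muscular dystrophy, stood at 4.71, 5.06 and 4.79 CPM with vehicle and at 3.18, 2.24 and 2.33 CPM with 24:5. The vehicle values were tight and lay above all 24:5 values, with a log2 fold change of -0.91 (SE 0.206, adjusted p = 0.278, edgeR). Col18a1 (ENSMUSG00000001435) stood at 78.0, 54.5 and 39.2 CPM with vehicle and at 22.1, 32.3 and 32.1 CPM with 24:5, a log2 fold change of -0.99 (SE 0.281, adjusted p = 0.486, edgeR). Nid1 (ENSMUSG00000005397) stood at 10.4, 15.5 and 6.03 CPM and at 5.37, 4.32 and 5.24 CPM, a log2 fold change of -1.10 (SE 0.324, adjusted p = 0.462, edgeR). In these 2 genes the vehicle spread was wide and vehicle replicate 3 was closest to the 24:5 retinas. Lamb2 stood at 39.0, 32.5 and 27.1 CPM with vehicle and at 26.2, 19.6 and 21.2 CPM with 24:5, again with no overlap. Col4a1 and Col4a2 overlapped between groups, at 31.9 to 63.9 and 21.5 to 39.4 CPM over all 6 libraries. Differences were small for Col4a2, at -0.12 (SE 0.229), and for Lamc1, at -0.13 (SE 0.0848), whose groups overlapped too.

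The fibronectin, fibrillin and fibulin genes were lower in 6 of 6, against 49.2% of all genes, with a median of -0.69. Fn1 (ENSMUSG00000026193) stood at 119, 78.3 and 112 CPM with vehicle and at 50.1, 74.6 and 57.3 CPM with 24:5. Its groups did not overlap and its log2 fold change was -0.76 (SE 0.203, adjusted p = 0.452, edgeR). Efemp1 stood at 119, 92.6 and 104 CPM with vehicle and at 56.9, 86.4 and 62.9 CPM with 24:5, with no overlap and a log2 fold change of -0.62 (SE 0.170, adjusted p = 0.459, edgeR). Fbln1 had the largest fold change of the set, -4.21 (SE 1.38, adjusted p = 0.646, edgeR), and its groups overlapped through vehicle replicate 3. Fbln2 and Fbln5 ranged over 0.778 to 4.95 and 1.82 to 5.45 CPM across all 6 libraries. Their log2 fold changes, -0.38 (SE 0.754) and -0.24 (SE 0.382), were smaller than their SE.

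Among the matricellular genes, Tgfbi (chromosome 13, 56609523 to 56639562), an adhesion protein induced by TGF-beta and known for corneal dystrophies, had the smallest p-value of the set. It stood at 20.4, 21.8 and 14.9 CPM with vehicle and at 4.02, 8.67 and 4.75 CPM with 24:5. The means were 19.0 ± 3.62 and 5.81 ± 2.50 CPM (SD, n = 3 each), a 3.27-fold difference with a log2 fold change of -1.71 (SE 0.306, adjusted p = 0.209, edgeR), and no 24:5 library reached the lowest vehicle library. Markers of microglia and macrophages, 8 genes, summed to 222, 197 and 130.3 CPM with vehicle and to 122.8, 87.4 and 63.0 CPM with 24:5, and their part in these results was not tested. Sparc stood at 342, 299 and 312 CPM with vehicle and at 293, 251 and 227 CPM with 24:5. That 1.24-fold difference had no overlap. Thbs1, at 18.1 to 53.6 CPM, overlapped between groups, as did Mgp, at 27.0, 26.7 and 33.9 CPM with vehicle and 16.7, 32.3 and 34.2 CPM with 24:5.

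The 5 fibrillar collagens were all lower, against 49.2% of all genes, with a median of -0.54. Col5a2, at -0.07 (SE 0.673), and Col1a1, at -0.20 (SE 0.961), differed by less than their SE. Col5a1 had no overlap, at 10.5, 5.61 and 5.81 CPM with vehicle and 5.45, 5.08 and 4.54 CPM with 24:5. Col1a2 had the smallest p of the 5, with a log2 fold change of -1.32 (SE 0.536, adjusted p = 0.751, edgeR). Its groups overlapped, at 17.8, 11.3 and 6.03 CPM with vehicle and 7.24, 4.57 and 2.25 CPM with 24:5. Col1a1 overlapped between groups, at 8.85, 2.51 and 2.35 CPM with vehicle and 7.75, 3.55 and 0.573 CPM with 24:5, and was highest in replicate 1 of both groups. Of the 5 type VI, VIII and XII collagen genes 1 was lower, against 49.2% of all genes, with a median of 0.12. That gene was Col6a3, at 7.33, 7.49 and 1.6 CPM with vehicle and 1.71, 1.52 and 0.942 CPM with 24:5, a log2 fold change of -1.97 (SE 0.590, adjusted p = 0.488, edgeR). Its partner Col6a1 was at 18.6, 23.2 and 19.4 CPM and at 24.5, 21.1 and 21.2 CPM, and Col6a2, the 1 member higher without overlap, at 4.49, 4.56 and 4.08 CPM and at 5.77, 4.78 and 4.75 CPM. Bgn, a proteoglycan of fibril assembly, was lower without overlap, at 7.68, 4.85 and 4.97 CPM against 4.73, 3.38 and 3.73 CPM.

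The remodelling genes spread widely within each group. Timp1 stood at 22.6, 14.3 and 55.9 CPM with vehicle and at 1.55, 41.8 and 20.6 CPM with 24:5, with widely overlapping groups. Timp3 stood at 184, 199 and 258 CPM with vehicle and at 142, 250 and 356 CPM with 24:5. Both were lowest in 24:5 replicate 1. That library also had the lowest Irf9, an interferon signalling gene chosen after its values were seen, at 22 CPM against 56.7 to 228 CPM in the other 5. Lox, at 1.21 to 2.01 CPM, overlapped between groups.

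**Figure D5:**
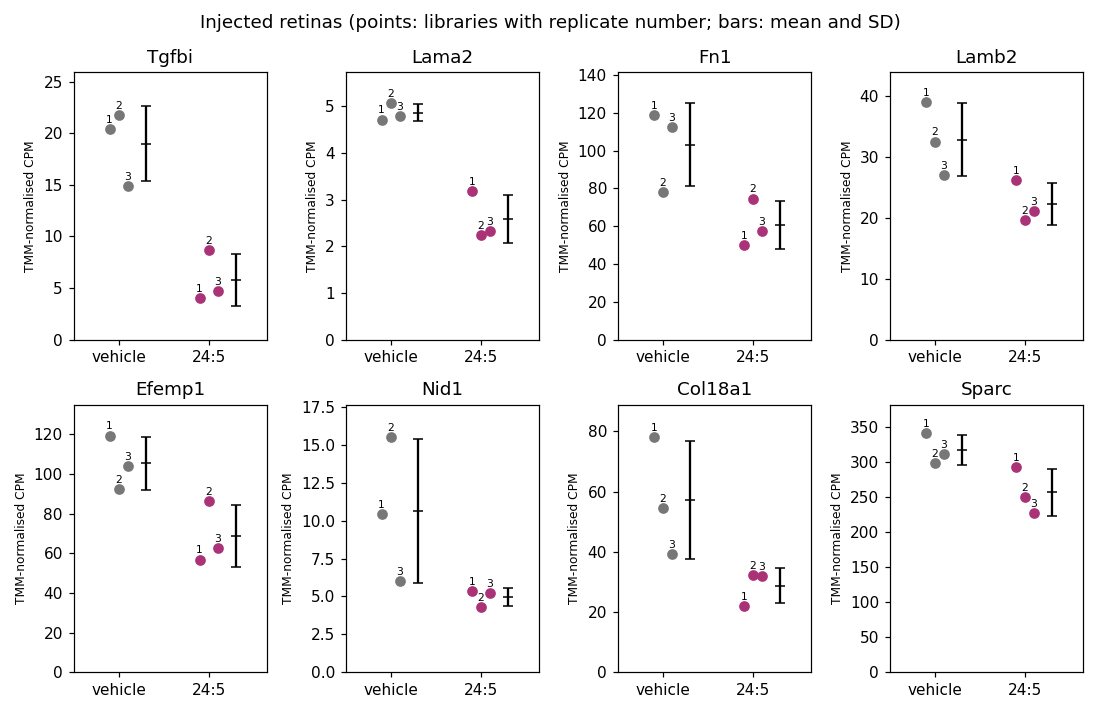
TMM-normalised CPM (vertical axes from 0) of 8 matrix genes in 3 vehicle and 3 24:5 retinas, with points numbered by replicate and a bar for the mean and SD. The 8 genes were picked from the 10 of 34 tested members that were lower without overlap, so the 24:5 points lie below the vehicle points by choice. Of the genes drawn, DESeq2 did not call Lamb2 and Sparc. Fbln1 and Col6a3, which DESeq2 did call, overlap through vehicle replicate 3 and are not drawn. Nid1 and Col18a1 have a wide vehicle spread that ends near the 24:5 retinas at replicate 3.

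The lower members differed in how far they rested on vehicle replicates 1 and 2. With both left out, so that the lone vehicle library is assumed to vary like the 24:5 retinas, Fbln1 was at 0.40 (SE 0.464), Col6a3 at -0.20, Nid1 at -0.28 and Col18a1 at -0.44 on the log2 scale. In the same fit Tgfbi was at -1.36, Lama2 at -0.89, Fn1 at -0.89 and Efemp1 at -0.60. Over all 15 alternatives these 4 ranged over -2.12 to -1.36, -1.09 to -0.80, -0.94 to -0.57 and -0.82 to -0.48. The set's median was -0.23 with both left out, -0.26 with the Optc level as a covariate and -0.34 with the lens marker level as a covariate. Without vehicle replicate 3, edgeR called 4 members, Nid1, Col6a3, Fbn1 and Fbln1, where 0.584% of all genes were called. With a split of libraries by Irf9 level as a term it called Lamb2 and Ogn, and 1.72% of all genes.

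A further 100 genes of matrix biology stood around these members, in lists of further basement membrane, vitreous matrix, collagen processing, proteases and inhibitors, matrix receptors and TGF-beta signalling. The main tests called 0 of them in any comparison, of 65 tested in uninjected and 99 in injected retinas. With 24:5, 27 of the 99 were lower and 0 higher at an unadjusted p under 0.05 (edgeR), against 5.16% and 1.44% of all genes. DESeq2 called 8 of them after adjustment, all lower, against 1.24% of all genes, and the median was -0.10. The genes with the smallest p were Adamts5, a protease that cuts proteoglycans, at 42.3 ± 1.90 CPM against 59.6 ± 3.84 CPM with vehicle, and Hspg2, the perlecan of basement membranes, at 6.48 ± 1.75 against 13.3 ± 1.12 CPM (SD, n = 3 each). With age, 3 of 65 were lower and 2 higher before adjustment (limma), against 1.96% and 1.69% of all genes. On recovered reads edgeR and DESeq2 counted 13 each, against 3.36% and 2.04% of all genes. Counts by these tools, here and in the comparisons below, run over all of the 100 genes that each tool fitted, not over the 65. The smallest p belonged to Col9a2, a cartilage and vitreous collagen, at 2.27 ± 0.456 FPKM (SD, n = 4) in older retinas against 3.42 ± 0.815 FPKM (SD, n = 3) in younger ones. Between genotypes 2 were lower and 1 higher before adjustment by limma, against 1.11% and 1.08% of all genes. At the same level edgeR had 2 and DESeq2 3, against 2.06% and 1.29% of all genes. The smallest p belonged to Ccn1, a matricellular protein, at 4.0 ± 1.16 FPKM in mutants against 2.10 ± 0.144 FPKM in wildtypes (SD, n = 3 each). Between older wildtypes and mutants 2 were lower and 1, Col4a3, higher before adjustment by limma, against 1.1% and 1.04% of all genes. There edgeR had 5 and DESeq2 6, against 1.98% and 1.27% of all genes.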

How the data were processed

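RNA from whole retinas was sequenced as poly(A)-selected libraries that mark strand, per the labels' protocols. For uninjected retinas the authors deposited FPKM values per gene, with gene length, symbol and coordinates, per the file headers. For injected retinas the authors deposited raw counts per gene. HISAT2 2.2.1, featureCounts 2.0.6, DESeq2 1.42.0 and mm10 are named, with no role or order, per the submitters' processing notes. How strand was set in counting, and which annotation release was used, is not given in the sources used here.

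Values were fitted over all genes of a table. On log2(FPKM + 1), limma 3.58.1 in R 4.3.3 was run with a robust trend, for genes with a mean of at least 1 over the 10 libraries. Here 16 of 35 members and 13786 of 54532 genes passed. This filter reads all groups together, and the other 19 members were too low to be tested there. For raw counts, edgeR 4.0.16 was run with robust quasi-likelihood fits, TMM factors and filterByExpr, which 34 members passed. Tests were two-sided, adjusted by Benjamini-Hochberg, with a threshold of 0.05. FPKM values were whole multiples of 1 read within 0.02 in 100.0% of cases, so edgeR and DESeq2 1.42.0 were also run on those reads. The procedure was tested on simulated data. Replicate pairs all differed beyond counting noise (chi-square per degree of freedom of 3.25 to 47.6).

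The members and lists were chosen with earlier results of these data known. The members named are those called by any listed tool, the 3 with the smallest p per comparison and the 2 highest of each role, with values per library or, where low or overlapping, a range. From other matrix lists the rule allows naming the gene with the smallest p, given as a mean and SD. Col1a2, Col6a2 and Bgn, given per library in injected retinas, were chosen after their values were seen. Alternatives were other pseudocounts, filters, scalings and tools, quality weights, a replicate block, a split of libraries, marker covariates and leaving out libraries. The fits with Optc as a covariate and with 2 libraries left out were chosen after seeing the data.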

Additional observations from a re-analysis of the deposited data

Results flagged for a closer look

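Among the 35 members in the group of 4 wildtype retinas at 18 months, 1 library stood apart from the others by Dixon's test. Col6a2 was at 0.753 FPKM in replicate 2, against 0.680 to 0.685 FPKM in the other 3. Chance marks about 1 in 20 such groups, so 1 of 35 is no more than chance gives.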

How the results depend on the processing

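Of 65 alternative counts of members past the threshold, 59 stayed within 1.5 times the main count and 6 did not. Library quality weights gave 8 members for age (Col4a2, Col18a1, Lamb2, Col6a1, Ogn, Fbn1, Fbln1 and Efemp1), where they called 9.04% of all genes, and 5 for genotype (Col4a2, Lamb2, Col6a1, Fbn1 and Efemp1), where they called 18.8%. For 24:5 against vehicle, DESeq2 gave 8, a split of libraries by Irf9 level as a term gave 2 (Lamb2 and Ogn), where it called 1.72% of all genes, and leaving out 1 library at a time gave 0 to 4. The Fbln1 fold change was reversed, at 0.40 on the log2 scale, without vehicle replicates 1 and 2. Deviations of same-numbered libraries correlated at -0.20 to 0.42 in injected retinas and -0.47 to 0.51 in uninjected ones. Differently numbered libraries of different groups correlated at -0.53 to 0.34 and -0.65 to 0.64. With so few libraries per group, these ranges cannot decide whether the replicate numbers pair the samples. The replicate block gave 2 members for 24:5 (Col1a2 and Tgfbi), where it called 0.504% of all genes, and 0 in the other comparisons. Depth limits Lum, Lox, Col6a3, Col3a1 and Timp1 most, with at most 24 reads in any uninjected library. The cause of each move was not tested.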
